A study of Triticum aestivum with 12 samples.

Results

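The interior of the A subgenome was described here as all loci of chromosomes 1A to 7A whose midpoint lay between 15% and 85% of the chromosome length, the length being the largest end coordinate of any locus on that chromosome. It held 2934547 of the 11509120 loci (25.5%) over 3483 Mb, and 148807 of these loci (5.07%) had enough reads to be tested. The rule used position alone and no measured value. A locus is a stretch of the genome that reads of the series covered, and its value is the number of reads of a library that fell on it. The leaves came from seedlings of the winter wheat variety Mv Béres grown in hydroponic solution under B (blue) or W (white) light. The groups were WP (W light with 0.5 mM putrescine, PUT, for 7 days), BP (B light with the same PUT treatment), BC (B light without PUT) and WC (W light without PUT). All 4 groups shared the variety and the leaf tissue, and each had 3 libraries. Per the methods all came from 1 of several independent experiments, so p-values cover the spread between these libraries alone.

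Bread wheat carries the related subgenomes A, B and D, each with its own copy of most genes. Its long chromosomes bear most of their genes towards the ends, while the interior around the centromere consists largely of transposable elements, repeats that plants keep densely methylated at cytosine. In MeDIP-seq an antibody against 5-methylcytosine (5mC) enriches methylated DNA fragments, which are then sequenced, so that more reads at a locus reflect more enriched DNA there, not a methylation level in percent. Putrescine is a polyamine, and polyamine synthesis draws on S-adenosylmethionine, the methyl donor of DNA methylation. The question of the study was how PUT and light spectrum together bear on the methylation profile, and here it was asked of the gene-poor middle of the A chromosomes.

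The interior of the A chromosomes was more densely read than their ends. The count per Mb averaged 1456 ± 145 in the A interior and 1026 ± 109 in the A distal arms (SD, n = 12 libraries), 1.42 times as much, and it was higher in the A interior in 12 of 12 libraries (two-sided exact sign-flip permutation test, p = 0.000488, the smallest that 12 pairs allow, adjusted p = 0.00605 over 62 library-level tests). Against the other subgenomes the A interior lay in the middle. It exceeded the B interior (1363 ± 118 per Mb) in 12 of 12 libraries and stayed below the D interior (1572 ± 126 per Mb) in 12 of 12 libraries, each with the same exact p of 0.000488. A count was found in a library at 30.3% ± 8.06 of the A interior loci and at 25.2% ± 7.25 of the A distal loci (SD, n = 12 libraries), again higher in 12 of 12 libraries.

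Along the chromosome the number of loci barely changed inside the interior, while their size and depth did. In steps of 5% of chromosome length, over all 7 chromosomes together, the A interior held between 827 and 852 loci per Mb. Loci deep enough to be tested peaked at 50.2 per Mb between 35% and 40% of the length and were fewest, 31.2 per Mb, between 80% and 85%. The median locus length had its peak in the same step, 577 bp, and its minimum, 497 bp, also between 80% and 85%. Protein-coding genes ran the other way, with 1.83 per Mb between 35% and 40% and 9.66 per Mb between 80% and 85%. No sharp edge stood at the boundary. The last steps inside it had 38.5 tested loci per Mb (15% to 20%) and 31.2 (80% to 85%), and the first steps outside had 30.3 (10% to 15%) and 27.8 (85% to 90%).

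**Figure D1:**
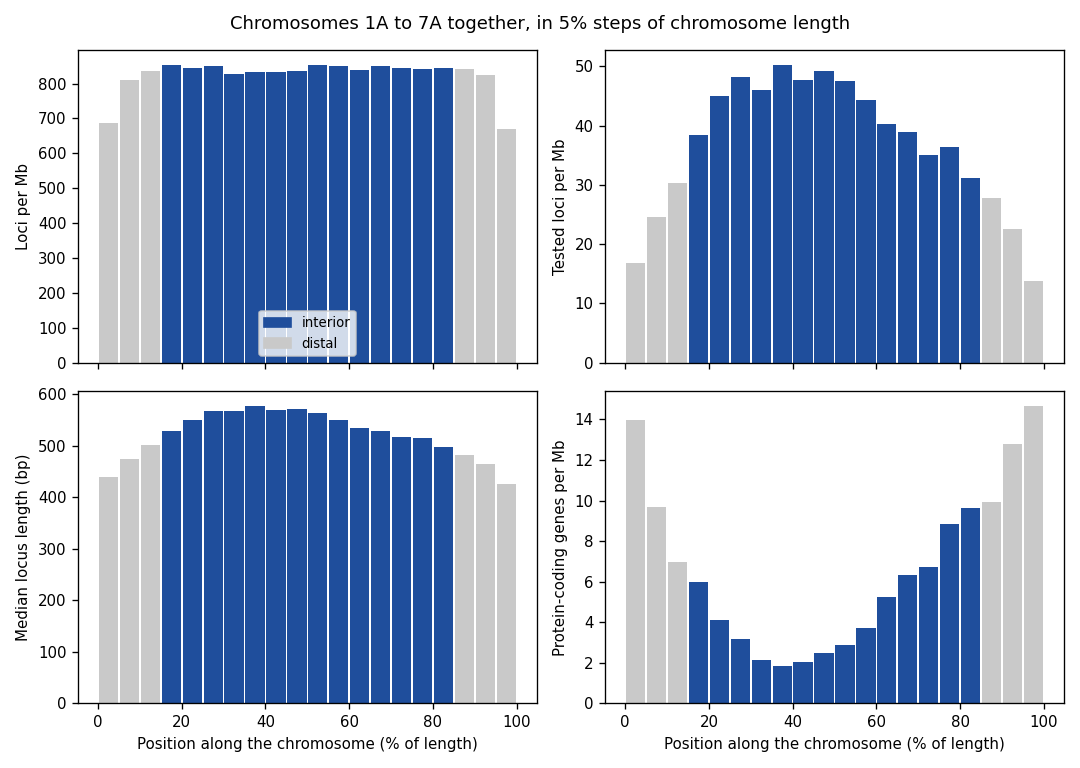
Loci per Mb, tested loci per Mb, median locus length in bp and protein-coding genes per Mb along chromosomes 1A to 7A together, in steps of 5% of chromosome length (blue bars, interior, grey bars, distal arms). Tested loci peak at 50.2 per Mb between 35% and 40% of the length, where genes are fewest at 1.83 per Mb.

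The 7 chromosomes resembled one another in density, with 837 loci per Mb on 5A as the lowest value and 851 on 3A as the highest. Chromosome 3A also had the most tested loci per Mb, 48.0, and 2A the fewest, 39.1. Over all member loci the median length was 545 bp, and the quartiles were 333 and 952 bp. The tested loci were longer, with a median of 2316 bp. Most loci were shallow or covered by few libraries. A count in 1 library only was found at 883187 of the A interior loci (30.1%), and a count in all 12 libraries at 26568 (0.905%). Of the tested loci 22652 (15.2%) had a count in every library, and 491 (0.330%) had a count above 10 in every library, against 0.437% of all tested loci.

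Genes took a small part of the interior. It held 16222 annotated protein-coding genes, 4.66 per Mb, against 11.3 per Mb in the A distal arms. Of the tested loci 2531 (1.70%) shared 1 bp or more with such a gene, and they touched 2030 genes. In the A distal arms 3.54% of the tested loci lay in a protein-coding gene, and 2.08% of all tested loci did. Below, intergenic means outside protein-coding genes only. Pseudogenes were overlapped by 688 tested loci of the interior, and genes of long non-coding RNA by 637. Annotated ribosomal RNA genes, the templates of the ribosome's RNA, were nearly confined to the ends on the A chromosomes, with 10 in the interior and 1049 in the distal arms, and 3 tested loci of the interior overlapped one.

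The total count ran from 19641114 to 21355140 in B light and from 15812048 to 18824815 in W light libraries, without overlap, and the A interior took between 26.2% and 28.3% of it. Loci of the A interior with a count numbered 888793, 760677 and 651004 in WP, 852398, 1105649 and 1180370 in BP, 1168300, 1009702 and 1110615 in BC, and 409329, 711867 and 810394 in WC. All 3 BC libraries and all 3 BP libraries lay above all 3 WC libraries, while the WP and BP ranges overlapped. WC replicate 1 covered the fewest loci and had the most reads on each, 10.1 per covered locus against 4.50 to 7.06 in the other 11 libraries.

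Under B light the A interior was covered more widely and more thinly than under W light, as were the other regions. A count was found at 1071172 ± 123080 loci in the 6 B light libraries and at 705344 ± 166356 in the 6 W light libraries (SD, two-sided exact permutation test, p = 0.00433). The mean count per covered locus was 5.16 ± 0.554 in B light and 6.94 ± 1.69 in W light libraries (SD, n = 6 each, exact permutation test, p = 0.0130). Adjusted over all 62 library-level tests the first p was 0.0336 and the second 0.0895. Over the 56 tests between groups alone they were 0.121 and 0.242, so neither call held there. The share of loci with a count was 36.5% in B light and 24.0% in W light libraries in the A interior, 31.1% and 19.4% in the A distal arms, 35.8% and 23.8% in the B interior, and 37.5% and 25.4% in the D interior. Thinning every library to the lowest member count left a difference of 322636 loci (exact permutation p = 0.00433). Over tested loci only, the difference in loci with a count was smaller and no longer passed p below 0.05. Without WC replicate 1 the B minus W light difference over all member loci was 306625 loci with a count and -1.13 reads per covered locus. Between single groups of 3 libraries an exact test cannot go below p = 0.10, and 3 against 3 comparisons are therefore given as values.

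**Figure D2:**
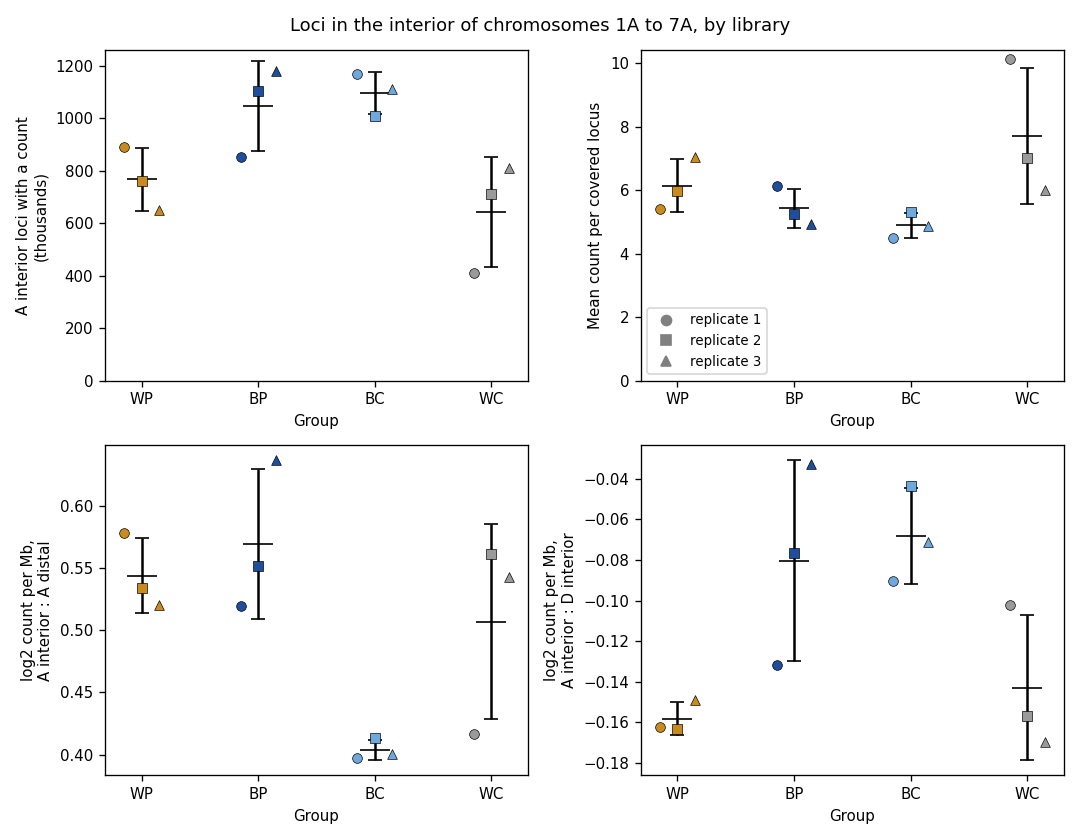
Number of A interior loci with a count, mean count per covered locus, and log2 ratios of the count per Mb of the A interior to the A distal arms and to the D interior, by group (points, the 3 libraries, line and bars, mean ± SD). The 3 BC libraries lie between 0.398 and 0.413 on the ratio to the distal arms, and WC replicate 1 beside them at 0.417.

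The balance between the A interior and its neighbours differed between groups. The log2 ratio of the count per Mb in the A interior to that in the A distal arms was 0.578, 0.534 and 0.520 in WP, 0.520, 0.552 and 0.637 in BP, 0.398, 0.413 and 0.400 in BC, and 0.417, 0.561 and 0.542 in WC. The BC libraries were thus the lowest and did not overlap any other group, although WC replicate 1 lay next to them. With PUT the ratio was 0.557 ± 0.0450 and without PUT 0.455 ± 0.0754 (SD, n = 6 libraries each, exact permutation test, p = 0.0346, adjusted p = 0.215 over the 62 tests). This difference was 0.0899 without BC replicate 1 and 0.0854 without BP replicate 3, each with an exact permutation p of 0.0693. The count on the mitochondrial sequence, a measure outside the nuclear chromosomes, was highest in BC, where the ratio was lowest. It was 76, 57 and 70 in WP, 91, 131 and 151 in BP, 277, 241 and 237 in BC, and 164, 96 and 104 in WC. Within WP and within BP the library with the highest mitochondrial count also had the highest ratio. Within BC and within WC the library with the highest mitochondrial count had the lowest ratio, 0.398 in BC replicate 1 and 0.417 in WC replicate 1. Scaled to the total count of each library, the same library was highest in each group. The part of this count in the ratio was not tested. Against the D interior the log2 ratio was -0.0743 ± 0.0354 in B light and -0.151 ± 0.0246 in W light libraries (SD, n = 6 each, exact permutation test, p = 0.00433), so that the shortfall against the D interior was smaller under B light. Its adjusted p was 0.0336 over the 62 tests and 0.121 over the 56 tests between groups. Whether the PUT effect on any of the 7 library-level measures differed between W and B light was tested by exact permutation of the PUT labels within each light, and none of the 7 gave p below 0.05.

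Segments of single chromosomes stood apart in single libraries or, on 4A, in all BC libraries together with WC replicate 1. In windows of 10 Mb, WC replicate 2 had 14 windows in a row on chromosome 5A, from 100 to 240 Mb, with 0.852 times the median share of the 12 libraries (median log2 deviation -0.23, range -0.31 to -0.19), where the medians of the other libraries over the same windows lay between -0.041 and 0.103. On chromosome 7A, BC replicate 1 stood at 0.801 and 0.803 times the median share in the 2 windows from 310 to 330 Mb, where every other library lay between -0.051 and 0.118 on the log2 scale. Between 80% and 85% of chromosome 4A the log2 deviation was 0.16, 0.17 and 0.17 in BC and 0.20 in WC replicate 1, and between -0.065 and 0.048 in the other 8 libraries. BP replicate 3 differed more broadly. It departed from the median by more than 0.1 on the log2 scale in 150 of the 355 windows of the A interior, while the other 11 libraries did so in 2 to 32 windows, and its runs of high windows lay near the middle of 1A, 2A, 3A, 4A, 5A and 7A.

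**Figure D3:**
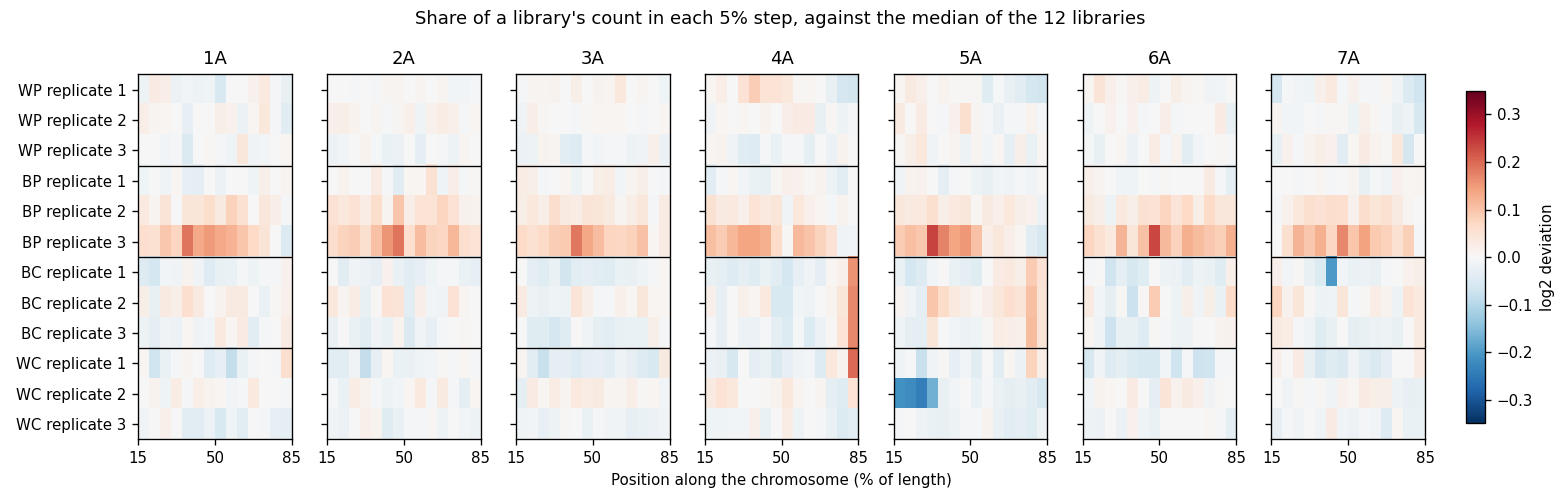
Share of a library's count in each 5% step of the A interior, as log2 deviation from the median of the 12 libraries (red, higher, blue, lower), with the libraries in rows and chromosomes 1A to 7A in columns. BP replicate 3 is raised near the middle of most chromosomes, WC replicate 2 is low on part of 5A, and BC replicate 1 is low in 1 step of 7A.

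Counts at single loci repeated poorly between libraries, which bears on every comparison below. Over the 148807 tested loci the correlation of log2 scaled counts between libraries of the same group ran from 0.026 to 0.353 (median 0.236, 12 pairs), and between libraries of different groups from -0.084 to 0.338 (median 0.138, 54 pairs), as a description over loci that share their libraries. A tested locus had a median mean count of 7.92 per library. A locus was called where the quasi-likelihood test of edgeR gave p below 0.01 and the log2 fold change exceeded 1.5 in size. Benjamini-Hochberg adjusted p-values were taken over all 539307 tested loci of the genome. Counts of loci with an adjusted p below 0.05 set no bound on the fold change, so they can include loci that were not called. The fit gave each locus the spread of the general trend, not its own, so a small p can come with libraries of 1 group that lie far apart. Reads given with a gene are those of the whole locus that overlaps it, which can lie mostly outside the gene.

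B light without PUT was set against W light without PUT to show the effect of light alone. In BC vs WC 4096 of the 148807 tested A interior loci (2.75%) were called, against 2.54% of all tested loci. Of the called loci 3845 were higher in BC (2.58% of those tested, against 2.36% of all tested loci) and 251 lower (0.169%, against 0.176%). The lower group had no read in any library at most of them, WC at 2836 of the loci higher in BC (73.8%) and BC at 199 of the loci lower in BC (79.3%), where a locus could be tested through the reads of 1 group alone. Over all comparisons and directions this share ran from 63.1% (lower in WP than in BP) to 86.4% (lower in WP than in WC). The same share over all tested loci was not computed. An adjusted p below 0.05 was reached by 17 tested A interior loci, called or not, all higher in BC, and by 0.0139% of all tested loci. Their number varied with single libraries and with the tool. It was 0 without BC replicate 2, 10 without BC replicate 1, 7 without BC replicate 3, 4, 5 and 6 without WC replicates 1, 2 and 3, and 9 without BP replicate 2. It was 1 with the library size over every locus, 478 with the likelihood ratio test and 1436 with DESeq2. Among genes, the smallest p was that of LOC123127673, a protein-coding gene at 6A:407956647-407960848 whose end overlaps the locus 6A:407960815-407964551. This locus had 9, 40 and 27 reads in BC against 0, 0 and 0 in WC, at least 36.5-fold higher in BC when WC is set to a floor of 3 reads over the group (edgeR adjusted p = 0.0131). BP had 14, 11 and 23 reads and WP 9, 12 and 3 there, so WC alone was empty. At LOC123062693 (3A:624827289-624828368, an uncharacterized protein) the locus 3A:624825995-624827571 had 24, 6 and 6 reads in BC against 0, 0 and 0 in WC, at least 17.2-fold higher in BC, with an adjusted p of 0.134. Here and below, a fold given as "at least" covers counting error only and not the spread between libraries.

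Lower loci in BC were few and none passed the adjusted threshold. LOC123061526 (3A:432997449-433000958) overlaps the end of the locus 3A:432995376-432997646. This locus had 0, 0 and 0 reads in BC against 30, 13 and 10 in WC, at least 12.0-fold lower in BC (adjusted p = 0.269). LOC123103366 (5A:362503002-362518795) holds the locus 5A:362508483-362513281, with 8, 0 and 5 reads in BC against 22, 37 and 50 in WC (log2 fold change -2.55 ± 0.92, SE, adjusted p = 0.356), and it was not called without BC replicate 2 (-1.997), BC replicate 3 (-2.67), WC replicate 2 (-2.55) or WC replicate 3 (-2.21). The lowest p among the lower loci belonged to 4A:610825194-610827381, outside any protein-coding gene, with 0, 0 and 0 reads in BC against 30, 26 and 18 in WC, at least 17.1-fold lower in BC (adjusted p = 0.180). The direction of the calls depended on the scaling. Scaled to the library size over every locus, without TMM factors, 2716 loci were called and 52.8% of them were higher in BC, against 93.9% with TMM factors. Without BC replicate 2 the count of calls was 2460.

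B light with PUT gave the largest number of calls against WC. In BP vs WC 5527 A interior loci (3.71%) were called, against 3.28% of all tested loci. Of these 5340 were higher in BP (3.59%, against 3.14% of all tested loci) and 187 lower (0.126%, against 0.143%). An adjusted p below 0.05 was found at 97 tested A interior loci, called or not, all higher in BP, and at 0.059% of all tested loci. That number was 228, 28 and 10 without BP replicates 1, 2 and 3, 59, 60 and 46 without BC replicates 1, 2 and 3, and 17 and 21 without WC replicates 1 and 2. It was 5 with the library size over every locus and 14 with that over the tested loci, 1718 with the likelihood ratio test and 3984 with DESeq2. LOC123127673 was again the gene with the smallest p. The locus that overlaps its end had 14, 11 and 23 reads in BP against 0, 0 and 0 in WC (at least 20.8-fold higher, adjusted p = 0.0293). LOC123182703 (1A:302457241-302458360) overlaps the locus 1A:302457412-302459066, which had 15, 7 and 105 reads in BP against 9, 0 and 1 in WC (log2 fold change 4.16 ± 0.96, SE, adjusted p = 0.0371). Most of the reads of that locus in BP came from replicate 3, and without that library its log2 fold change was 1.88 and it was not called.

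Among the loci lower in BP than in WC, LOC123082731 (4A:626668539-626677477) held the locus 4A:626672021-626672963 with 0, 0 and 0 reads in BP against 11, 29 and 5 in WC, at least 12.2-fold lower (adjusted p = 0.173). At LOC123127413 (6A:266461905-266502903) the locus 6A:266472679-266474683 had 0, 1 and 0 reads in BP against 12, 6 and 24 in WC (log2 fold change -4.70 ± 1.67, SE, adjusted p = 0.263), and it was not called without BP replicate 1 (-4.20), BP replicate 3 (-4.33) or WC replicate 3 (-3.998). The intergenic locus 3A:339571732-339572665 had 12, 3 and 9 reads in BP against 108, 40 and 73 in WC (log2 fold change -2.86 ± 0.76, SE, adjusted p = 0.104), without overlap, and was not called with DESeq2 (adjusted p = 0.370). Scaled to the library size over every locus 3101 loci were called and 77.3% were higher in BP, against 96.6% with TMM factors. The count was 3410 without BP replicate 2 and 2427 without BP replicate 3.

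**Figure D4:**
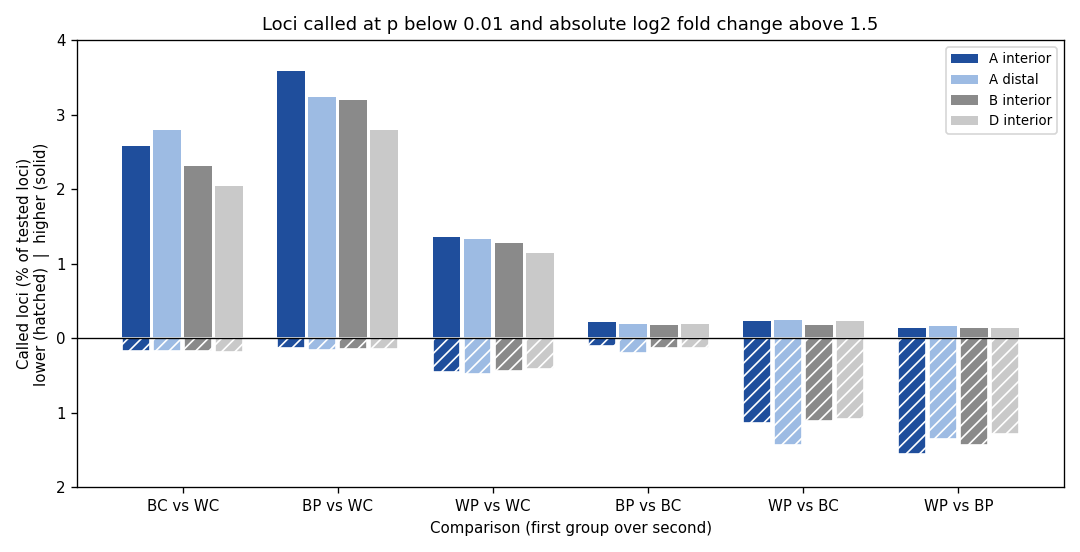
Percent of tested loci called higher (solid, upward) or lower (hatched, downward) in the first group of each comparison, for the A interior, the A distal arms and the B and D interiors. The A interior shows 3.59% higher in BP vs WC and 1.54% lower in WP vs BP, and all 4 regions share the direction of most calls except in BP vs BC.

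PUT under W light gave fewer calls. In WP vs WC 2696 A interior loci (1.81%) were called, against 1.69% of all tested loci. Of these 2021 were higher in WP (1.36%, against 1.25% of all) and 675 lower (0.454%, against 0.436%). None of the tested A interior loci reached an adjusted p below 0.05 with edgeR's quasi-likelihood test, its likelihood ratio test or DESeq2. By the quasi-likelihood test 10206 of the 148807 had an unadjusted p below 0.05, against 35554 of all 539307 tested loci. Of all tested loci 0.000927% passed the adjusted threshold. The locus at LOC123062693 had 12, 25 and 9 reads in WP against 0, 0 and 0 in WC (at least 17.2-fold higher, adjusted p = 0.477). LOC123107208 (5A:472133593-472142695) had 2, 18 and 28 reads in WP against 0, 0 and 0 in WC at the locus 5A:472135068-472135841, at least 17.6-fold higher (adjusted p = 0.542). The smallest p belonged to the intergenic locus 3A:226601378-226602672, with 7, 0 and 72 reads in WP against 0, 0 and 0 in WC, at least 28.3-fold higher (adjusted p = 0.0617), where the groups touch at 0. Most of its reads in WP came from replicate 3. Without that library its log2 fold change was 4.77, against 7.61 with all libraries.

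In the other direction, LOC123107478 (5A:523865379-523866310) overlaps the locus 5A:523866303-523869556 by a few bases at its end, and this locus had 1, 0 and 0 reads in WP against 8, 14 and 10 in WC (log2 fold change -4.40 ± 1.48, SE, adjusted p = 0.548). It was not called without WP replicate 2 (-3.98) or WP replicate 3 (-3.96). LOC123150372 (1A:471303218-471304366) had 0, 0 and 0 reads in WP against 15, 10 and 12 in WC at the locus 1A:471304007-471305697, at least 11.1-fold lower (adjusted p = 0.548), and it was not called without any single WP library (edgeR's adjusted p then 0.660 to 0.854). The intergenic locus 3A:167747673-167751965 had 0, 0 and 0 reads in WP against 0, 15 and 25 in WC, at least 12.5-fold lower (adjusted p = 0.477). Without WC replicate 3 the count of calls was 4436. Of the calls 75.0% were higher in WP with TMM factors and 59.9% with the library size over the tested loci.

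PUT under B light gave the fewest calls of the 6 comparisons in the fit to all 12 libraries. With the 6 libraries of each comparison fitted alone the order turned, with 1071 calls for PUT in B light and 997 for PUT in W light. In BP vs BC 467 A interior loci (0.314%) were called, against 0.333% of all tested loci. Of these 317 were higher in BP (0.213%, against 0.196% of all) and 150 lower (0.101%, against 0.137%). Higher loci made up 67.9% of these calls, against 61.4% in the D interior, 58.6% in the B interior, 48.9% in the A distal arms and 58.7% of the calls over all tested loci. This split rested on single libraries, since 46.1% were higher without BP replicate 2 and 52.1% without BP replicate 3. Scaled to the library size, 82.4% were higher with the size taken over every locus and 53.3% with the size taken over the tested loci. An adjusted p below 0.05 was reached at 0.00185% of all tested loci and here at 2, the intergenic 5A:346441270-346442186 and 4A:342355916-342356727 that are described below. Neither passed with the likelihood ratio test or DESeq2, where the number was 0, as it was without BP replicate 3. It was 4 without BP replicate 1 and 1 without either BC replicate 1 or BC replicate 3. LOC123086223 (4A:429868280-429870997) had 25, 67 and 2 reads in BP against 1, 4 and 2 in BC at the locus 4A:429870884-429871825 (log2 fold change 3.38 ± 1.12, SE, adjusted p = 1), and LOC123060597 (3A:118163042-118180564) had 7, 86 and 34 in BP against 13, 0 and 4 in BC at 3A:118180309-118181098 (log2 fold change 2.69 ± 0.92, SE, adjusted p = 1). In both the groups met or overlapped, and without BP replicate 2 neither was called (log2 fold changes 2.13 and 1.82). The first was also not called without BC replicate 1 (3.05) or BC replicate 3 (3.29), and the second without BC replicate 2 (2.13) or BC replicate 3 (2.503), or with DESeq2.

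The overlapping genes LOC123128234 (6A:519795840-519805454) and LOC123128235 (6A:519798270-519810479, an uncharacterized protein) share the locus 6A:519805409-519806916, which had 0, 0 and 0 reads in BP against 18, 0 and 3 in BC, at least 8.12-fold lower (adjusted p = 1). It was not called without BC replicate 1 or without any single BP library. The intergenic locus 5A:482482445-482483372 separated BC from most other libraries. It had 80, 57 and 18 reads in BP against 177, 214 and 192 in BC (log2 fold change -2.21 ± 0.52, SE, adjusted p = 0.565), and DESeq2 did not call it (adjusted p = 1). The count of calls in this comparison was 306 without BP replicate 2 and 795 without WC replicate 1, which enters only through the shared fit.

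W light with PUT was also set against both B light groups. In WP vs BC 2048 A interior loci (1.38%) were called, against 1.38% of all tested loci. Of these 349 were higher in WP (0.235%, against 0.22% of all) and 1699 lower (1.14%, against 1.16%). An adjusted p below 0.05 was reached by 6 tested A interior loci, all lower in WP, and by 0.0109% of all tested loci. Not all of these 6 were called, since some fell short of the fold threshold. This number was 1 without either WP replicate 1 or WP replicate 3, 2 without BC replicate 2 and 14 without WC replicate 1, and it was 1 with the likelihood ratio test and 50 with DESeq2. The locus 5A:482482445-482483372 was the clearest, with 7, 32 and 37 reads in WP against 177, 214 and 192 in BC (log2 fold change -3.31 ± 0.54, SE, adjusted p = 2.61e-05). It was called in every alternative tried for it, to which the library size over every locus did not belong. WC had 113, 8 and 17 reads there, so WC replicate 1 lay nearer to BC than to the rest of its group. The locus that overlaps LOC123107478 by a few bases had 1, 0 and 0 reads in WP against 40, 27 and 14 in BC (log2 fold change -6.24 ± 1.51, SE, adjusted p = 0.217). LOC123130468 (6A:136142679-136147755) overlaps the start of the locus 6A:136147511-136148463. This locus had 68, 61 and 30 reads in WP against 111, 203 and 119 in BC (log2 fold change -1.81 ± 0.46, SE, adjusted p = 0.366), where the groups did not overlap. It was not called without BC replicate 2 (-1.46) or with the likelihood ratio test (adjusted p = 0.410).

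Among the loci higher in WP than in BC, 7A:570019433-570021716 overlaps LOC123148320 (7A:570021658-570025220, an uncharacterized protein) at its end only. This locus had 30, 14 and 27 reads in WP against 1, 0 and 0 in BC (log2 fold change 5.39 ± 1.61, SE, adjusted p = 0.667). The locus at LOC123061526 had 16, 11 and 10 reads in WP against 0, 0 and 0 in BC, at least 9.54-fold higher (adjusted p = 0.704), so BC was the empty group there against WC as well. The intergenic locus 1A:394759802-394762263 had 21, 32 and 44 reads in WP against 1, 0 and 3 in BC (log2 fold change 4.13 ± 1.12, SE, adjusted p = 0.552). Scaled to the library size over every locus, 66.5% of 1839 called loci were higher in WP, against 17.0% with TMM factors. The count was 999 without BC replicate 2 and 1358 without WP replicate 3.

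In WP vs BP 2500 A interior loci (1.68%) were called, against 1.54% of all tested loci. Of these 201 were higher in WP (0.135%, against 0.144% of all) and 2299 lower (1.54%, against 1.39%). An adjusted p below 0.05 was found at 6 tested A interior loci, called or not, all lower in WP, and at 0.0076% of all tested loci. The number was 19 without BP replicate 1, 2 without BP replicate 3 and 32 without WC replicate 1, and it was 17 with the likelihood ratio test and 344 with DESeq2. The locus at LOC123130468 had 68, 61 and 30 reads in WP against 64, 61 and 278 in BP (log2 fold change -1.65 ± 0.46, SE, adjusted p = 0.443). The groups overlapped there, and it was not called without BP replicate 3 (log2 fold change -0.25) or WP replicate 3 (-1.35), with the likelihood ratio test (adjusted p = 0.482) or with the library size over the tested loci (-1.42). LOC123061192 (3A:288619350-288624278) had 0, 0 and 0 reads in WP against 0, 19 and 30 in BP at the locus 3A:288621410-288623853, at least 20.2-fold lower (adjusted p = 0.500), and not called without BP replicate 3 (adjusted p = 1). BC had 18, 9 and 2 reads and WC 0, 0 and 0 there, so reads at this locus were seen under B light only, in 5 of 6 libraries. It was named for being low in WP against BP, and other parts of the gene were not looked at.

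LOC123082731 and LOC123127413 were the genes with the smallest p among the loci higher in WP than in BP. The first had 13, 0 and 43 reads in WP against 0, 0 and 0 in BP (at least 16.5-fold higher, adjusted p = 0.465) and the second 24, 18 and 8 in WP against 0, 1 and 0 in BP (log2 fold change 5.09 ± 1.68, SE, adjusted p = 0.605). The first was not called without WP replicate 3, and the second not without WP replicate 1 (4.73) or BP replicate 1 (4.58). The intergenic locus 3A:507457605-507460234 had 25, 20 and 42 reads in WP against 1, 0 and 0 in BP (log2 fold change 5.88 ± 1.505, SE, adjusted p = 0.300). Scaled to the library size over every locus, 34.9% of 1482 called loci were higher in WP, against 8.04% with TMM factors. The count was 783 without BP replicate 3, 1642 without BP replicate 2 and 1621 without WP replicate 3.

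Because the comparisons share libraries, their calls are not independent. Loci called higher against WC in all 3 other groups numbered 1146 in the A interior (0.770% of its tested loci, against 0.655% of all tested loci), and loci lower in WP than in WC, BC and BP numbered 295 (0.198%, against 0.191%). A call in any of the 6 comparisons was made at 10707 A interior loci (7.20%, against 6.68%), and an adjusted p below 0.05 in any was found at 102 (0.0685%, against 0.0693%). The difference between the PUT effects in W light and in B light, W minus B, was called at 1531 loci (1.03%, against 1.01%), 893 of them positive (0.600%, against 0.601%) and 638 negative (0.429%, against 0.411%). None had an adjusted p below 0.05 by edgeR's quasi-likelihood test, which 0.000371% of all tested loci passed. By the quasi-likelihood test an unadjusted p below 0.05 was found at 7440 of the 148807 tested A interior loci, against 26298 of all 539307 tested loci. An adjusted p below 0.05 was found in the A interior at 0 loci by the likelihood ratio test and at 1 by DESeq2. The contrast was positive at 58.3% of the calls, against 39.9% with the library size over every locus, and 2661 loci were called without WC replicate 3. Of all tested A interior loci 1.70% lay in a protein-coding gene. Over the 12 sets of called loci, by comparison and direction, this share ran from 1.04% (24 of 2299 loci lower in WP than in BP) to 4.00% (6 of 150 loci lower in BP than in BC), with 1.77% among the loci higher in BC than in WC and 1.27% among those higher in BP than in WC. No test of these shares was run.

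Calls were spread over all 7 chromosomes. The percent called ran from 2.58% (1A and 4A) to 3.15% (5A) in BC vs WC and from 3.41% (4A) to 3.94% (2A) in BP vs WC. Chromosome 5A also had the highest share in WP vs WC, 2.04%, where the 7 chromosomes began at 1.64% (4A). In the stretch of 5A that was low in WC replicate 2, 6580 loci were tested. Of these 3.30% were called for BC vs WC, 4.16% for BP vs WC and 2.28% for WP vs WC. In the rest of the A interior the shares were 2.73%, 3.69% and 1.79%. They were 3.08%, 3.61% and 1.92% on 5A outside the stretch, and 2.69%, 3.70% and 1.78% on the other A chromosomes. Without WC replicate 2 the shares were 3.51%, 4.51% and 2.39% in the stretch and 3.10%, 4.00% and 2.07% in the A interior outside it.

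Of the 5 loci of the A interior with the highest mean scaled count, 4 lay in no protein-coding gene, and several differed widely between single libraries. The locus 4A:603740690-603741034, 345 bp long, had 257, 413 and 211 reads in WP, 247, 613 and 1408 in BP, 401, 565 and 501 in BC, and 216, 482 and 271 in WC. It was called in BP vs WC (log2 fold change 1.66 ± 0.23, SE, adjusted p = 5.56e-09) and in WP vs BP (-1.65 ± 0.23, SE, adjusted p = 9.26e-09). The first was 0.60 and the second -0.59 without BP replicate 3, and neither was then called. It was also not called in BP vs WC without WC replicate 1 (1.39), nor in WP vs BP without WP replicate 3 (-1.45). Both calls were lost with the likelihood ratio test (adjusted p = 0.264 and 0.427) and with the library size over the tested loci (1.26 and -1.41). Its log2 fold change was 1.11 in BC vs WC (edgeR adjusted p = 0.00992) and -1.10 in WP vs BC (edgeR adjusted p = 0.00935). Both fell short of the fold threshold and were not called. The locus 5A:346441270-346442186, 917 bp, had 131, 146 and 89 reads in WP, 85, 702 and 2498 in BP, 59, 566 and 149 in BC, and 33, 143 and 78 in WC. The locus 4A:342355916-342356727, had 44, 85 and 63 in WP, 42, 450 and 1425 in BP, 27, 365 and 73 in BC, and 24, 97 and 40 in WC. BP replicates 2 and 3 and BC replicate 2 were thus high at both of these loci, while BP replicate 1 and BC replicate 1 lay within the range of the W light libraries.

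These 2 loci gave the smallest p-values in the A interior. For 5A:346441270-346442186 the log2 fold change was 4.17 ± 0.26 in BP vs WC (SE, adjusted p = 3.65e-51), 2.12 ± 0.24 in BC vs WC (adjusted p = 1.93e-13), 2.05 ± 0.24 in BP vs BC (adjusted p = 4.26e-12) and -3.51 ± 0.26 in WP vs BP (adjusted p = 7.25e-38). The spread within groups did not enter these values. Without BP replicate 3 the value for BP vs BC was 0.29, and without BC replicate 2 that in BC vs WC was 0.76, and neither was then called. DESeq2 gave an adjusted p of 0.463 in BC vs WC and of 1 in BP vs BC. At 4A:342355916-342356727 the log2 fold change was 4.05 ± 0.34 in BP vs WC (SE, adjusted p = 2.42e-27) and 2.00 ± 0.31 in BP vs BC (SE, adjusted p = 2.2e-05), the second 0.35 without BP replicate 3 and not called by DESeq2 (adjusted p = 1). In WP vs BC it was -1.66 there, and 0.0069 without BC replicate 2. That call was also lost without WP replicate 1 (-1.45), with the likelihood ratio test (adjusted p = 0.467) and with DESeq2 (adjusted p = 0.735).

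The other 2 deep loci did not follow this pattern. The locus 6A:278345681-278356988, 11308 bp, had 522, 401 and 365 reads in WP, 444, 320 and 101 in BP, 268, 111 and 239 in BC, and 237, 339 and 480 in WC. The lowest counts were those of BP replicate 3 and BC replicate 2, the same libraries that were high at the 2 loci above. The locus 3A:552590423-552598234, 7812 bp, spans the protein-coding gene LOC123058613 (3A:552592164-552593364) and had 178, 160 and 132 reads in WP, 187, 142 and 58 in BP, 131, 86 and 136 in BC, and 132, 166 and 170 in WC. No comparison called either locus.

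**Figure D5:**
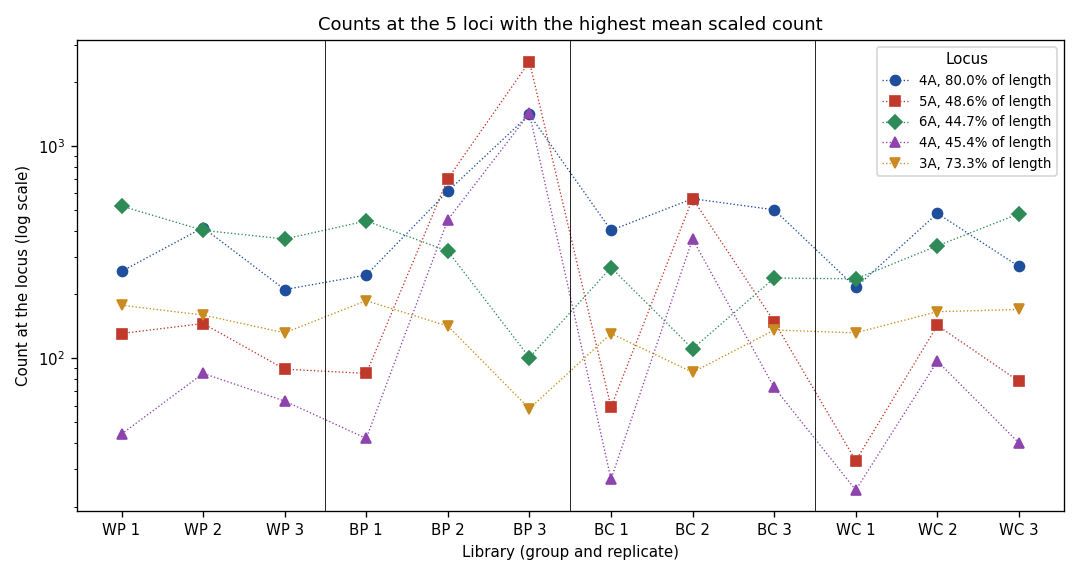
Counts per library on a log axis at the 5 A interior loci with the highest mean scaled count, each named by its chromosome and its position in percent of chromosome length (libraries ordered by group, WP, BP, BC, WC). The loci on 5A at 48.6% and 4A at 45.4% rise to 2498 and 1425 reads in BP replicate 3, where the locus on 6A at 44.7% has 101.

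The loci of steadiest depth were also intergenic. Of the 491 tested loci with a count above 10 in every library, 2A:215980937-215999188 varied least, with 122, 111 and 105 reads in WP, 129, 115 and 83 in BP, 73, 78 and 83 in BC, and 118, 93 and 128 in WC (coefficient of variation of the scaled counts 11.8%, n = 12 libraries). It was 18252 bp long. The next were 4A:403623021-403633264 (14.0%) and 1A:221076033-221078083 (17.2%), the second with 13 to 21 reads in every library. None of the 3 was called in any comparison.

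Of the 19 genes that the study singled out, by qRT-PCR or in its gene lists, 5 lay in the A interior. Of these 2 had a tested locus that overlapped the gene itself. LOC123043525 (1A:220479218-220485906) is annotated as ribosomal RNA small subunit methyltransferase I-like, a kind of enzyme that methylates ribosomal RNA. The locus at its edge, 1A:220477742-220479376, had 13, 3 and 5 reads in WP, 12, 7 and 33 in BP, 4, 0 and 14 in BC, and 0, 0 and 0 in WC. It was called higher than WC in WP (at least 7.75-fold), BP (at least 23.5-fold) and BC (at least 8.53-fold), with adjusted p-values of 0.548, 0.114 and 0.312. The call was lost in WP without WP replicate 1, WC replicate 2 or WC replicate 3, in BP without BP replicate 3, and in BC without BC replicate 3. The study chose this gene on these libraries, so the direction is no independent evidence. LOC123102745 (5A:175750405-175758775) is annotated as a stromal heat shock-related protein of the chloroplast, a chaperone family that helps proteins fold after import. Its locus 5A:175748756-175750683 had 7, 7 and 4 reads in WP, 9, 12 and 7 in BP, 9, 21 and 6 in BC, and 15, 0 and 12 in WC, and no comparison called it. The study reported this gene as less methylated under B light than in WC, and as more methylated in WP than in BC or BP. LOC123187941, LOC123188102 (both 2A) and LOC123103161 (5A) had no tested locus overlapping the gene itself. The study reported methylation changes at these genes too. It matched loci to genes extended by 3000 bp, which was not done here for single genes, so its calls at them could not be compared.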

How the data were processed

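Leaf DNA of 12 libraries was measured by MeDIP-seq. The submitters' processing notes name FastQC, Trim Galore, cutadapt, BWA and bedtools. The deposited files hold raw read counts per locus, which the authors made without normalization on the wheat IWGSC CS RefSeq v2.1 assembly. Pooled input libraries were not used here. Starts are printed 1-based, and gene positions come from the RefSeq annotation of the same build. The loci and lists were chosen with earlier results of these data known.

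A locus was tested where its count exceeded 10 in 2 or more libraries of 1 group. The quasi-likelihood test of edgeR 4.0.16 (R 4.3.3) was fitted with TMM factors on all 12 libraries and all 539307 such loci, with 1 mean per group. The study used the likelihood ratio test, which was an alternative here, as was DESeq2 1.42.0. The common dispersion was 0.951 and the prior degrees of freedom infinite. TMM factors ran from 0.820 to 1.49. The fit was tested on simulated data. Library-level values were compared by exact permutation tests (scipy 1.17.1) with Benjamini-Hochberg adjustment over 62 tests. Depth was 15812048 to 21355140 reads per library, and the fold bounds from a floor of 3 reads over a group cover counting error only.

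In each comparison and direction the text names the 2 genes with the smallest p among called loci that overlap a protein-coding gene and the called locus with the smallest p, and besides these the 5 loci of highest mean scaled count, the 3 of lowest spread among loci above 10 in all libraries, and the genes the study singled out. Other gene lists and sequence composition were not analysed here, because product names were at hand for 946 genes only and no genome sequence was used. Of the study's 19 genes 17 could be placed on the annotation.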

Additional observations from a re-analysis of the deposited data

Results flagged for a closer look

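A sample far from the others was looked for in 28 groups of library-level values, and 5 were found, where about 1 in 20 is expected by chance. WC replicate 1 gave 4 of them. Its mean count per covered A interior locus was 10.1, apart from the other 5 libraries of W light. Its log2 ratio of the count per covered locus in the A interior to that in the A distal arms was 0.0657, apart from the other libraries without PUT. Its log2 ratio of the count per Mb to the A distal arms was 0.417 and to the D interior -0.102, both apart from the other libraries of W light. BP replicate 3 gave the fifth, with a log2 ratio of the count per Mb in the A interior to that in the B interior of 0.194, apart from the other libraries with PUT.

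A difference in the PUT effect between W and B light was called at 1531 A interior loci (p below 0.01 and an absolute log2 difference above 1.5). This was 1.03% of those tested, against 1.01% of all tested loci. None passed an adjusted p of 0.05 with edgeR's quasi-likelihood test, so no single locus was shown to differ. By the same test 7440 of the 148807 tested A interior loci had an unadjusted p below 0.05, against 26298 of all 539307 tested loci.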

How the results depend on the processing

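Counts of called A interior loci are given in the order BC vs WC, BP vs WC, WP vs WC, BP vs BC, WP vs BC, WP vs BP and the PUT effect under W minus B light. They were 4096, 5527, 2696, 467, 2048, 2500 and 1531, and 7564, 9571, 6629, 1654, 4564, 5217 and 3889 with the likelihood ratio test and 7432, 10343, 5328, 1434, 4738, 6317 and 3047 with DESeq2. A filter at a count above 5 gave 8517, 10532, 5467, 931, 3815, 4309 and 6954, a filter above 20 gave 419, 816, 191, 48, 203, 380 and 88, and no filter, with the A interior fitted alone, 9579, 12127, 6642, 1079, 3807, 4460 and 8058. An adjusted p below 0.05 alone was met by 17, 97, 0, 2, 6, 6 and 0. Library sizes over every locus gave 2716 (BC vs WC), 3101 calls for BP vs WC and 1482 for WP vs BP, and RLE factors 3997 for WP vs BP. The 6 libraries of a comparison alone gave 2593 loci for BC and 997 for WP, each against WC, and 1071 for BP and 3199 for WP, each against BC. Leaving out 1 library, with the loci of the full filter, gave 2460 to 5699, 2427 to 6927, 1818 to 4436, 306 to 795, 999 to 2950, 783 to 3656 and 1026 to 2661. The cause of these shifts was not tested.

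With the replicate number as a block the counts were 3519 for BP and 1492 for WP, each against WC, 225 for BP and 1193 for WP, each against BC, 1274 for WP against BP and 791 for the PUT effect between lights. The labels do not say whether equal numbers pair the libraries. Deviations from the group means correlated at -0.078 to 0.134 between libraries of the same number (median 0.0012, 18 pairs). Between other numbers they correlated at -0.165 to 0.217 (median -0.00019). No pairing was seen in them, but single loci repeated too poorly for this to exclude one. Sign flips over the 6 same-numbered pairs, whose smallest p is 0.0313, leave a mean difference as it is by construction. Their exact p was 0.0625 for the B light minus W light differences of 365828 loci and of -1.77 reads per covered locus, and the PUT difference of 0.101 in the log2 ratio to the distal arms no longer passed 0.05 either. Of the locus calls 6 were lost with the block.

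Over tested loci only, the B minus W light difference was 1.06 percentage points in the share of the count and 0.0570 in the log2 ratio to the B interior, both then past the threshold, 13319 loci with a count, no longer past it, and 0.0168 in the log2 ratio to the distal arms, turned in sign. The PUT difference was 0.518 points in the share, no longer past the threshold, 0.0454 in the ratio of counts per covered locus, then past it, and 0.550 reads per covered locus and 0.0159 in the ratio to the D interior, both turned in sign. The A minus B interior difference in loci with a count turned to -0.445 points. The PUT difference in share also missed the threshold with the interior from 10% to 90% (0.512) and without the highest 0.1% of loci (0.495), where the B minus W light ratio to the B interior passed it (0.0424). Leaving out 1 library, the PUT difference ran from 0.290 to 0.646 points in the share, from -55694 to 96100 loci with a count (negative, too, at -3386 without BP replicate 2 and -18330 without BP replicate 3), from -0.875 to 0.251 reads per covered locus, from 0.0213 to 0.0409 in the ratio of counts per covered locus and from 0.0854 to 0.123 in that to the distal arms, and the B minus W light ratio to the B interior from 0.0184 to 0.0427. In all, 153 of 224 alternatives other than a left-out library left the call as it was or the count of calls near it. Sizeable shifts still passed as near. For BP vs WC the count went from 5527 to 7021 with RLE factors. For BC vs WC it went from 4096 to 2736 with the replicate block. Thinning to equal counts was chosen after seeing the data. Of 45 called locus comparisons 20 held under every alternative tried at single loci and 23 were lost without 1 library. Those alternatives were the likelihood ratio test, DESeq2, the library size over the tested loci and the replicate block. A prior count of 2 and leaving out 1 library were tried as well. The library size over every locus, RLE factors and other filters were not tried at single loci. The log2 fold change of 4A:342355916-342356727 in WP vs BC ran from -2.16 to 0.0069 without 1 library, and turned without BC replicate 2. Depth limits single loci, whose median mean count was 7.92 reads.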
